A study of Homo sapiens with 6 samples.

Results

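The 36 genes described here encode aminoacyl-tRNA synthetases, the enzymes that load each transfer RNA (tRNA) with its amino acid. They were taken by gene symbol from a table of read counts that held 36517 genes, and all 36 symbols were present and had enough counts to be tested among 19628 tested genes. The 20 genes named without a final 2 encode the cytosolic enzymes, and the 16 genes with that suffix encode mitochondrial enzymes. The counts came from messenger RNA sequencing of MDA-MB-453, an established human breast cancer cell line, at day 3. In 3 libraries the cells carried a lentiviral hairpin aimed at tRF-1-Ser (shtRF replicates 1 to 3), a small RNA released from the 3′ trailer of a precursor of a serine tRNA. In 3 libraries they carried a lentivirus with a negative-control hairpin (control replicates 1 to 3). All cells were therefore transduced, and no untransduced cells were analysed here. The fragment itself is too small for these libraries, so the knockdown was not visible here, and shtRF and control are as the sample titles give them. Bulk RNA was sequenced, in which fewer cells of a kind and less RNA per cell cannot be told apart.

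A synthetase joins an amino acid to the 3′ end of its tRNA at the cost of ATP, and the charged tRNA is then carried to the ribosome by elongation factor eEF1A. The cytosolic and mitochondrial enzymes are separate nuclear genes for most amino acids, whereas GARS (glycine) and KARS (lysine) each supply both compartments. Some cytosolic enzymes are held in a multisynthetase complex with the scaffold proteins AIMP1, AIMP2 and EEF1E1. When uncharged tRNA accumulates, the kinase GCN2 phosphorylates eIF2 and the transcription factor ATF4 is made, and ATF4 raises genes of amino acid uptake and synthesis together with many cytosolic synthetases. ATF4 binds with a C/EBP partner at amino acid response elements in the promoters of such genes.

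The letters of this element, TGATGNAAN (N is any base), were searched on both strands of RefSeq promoter windows of 300 bases, 250 before and 50 after the transcription start, on GRCh38.p14. A window was found for 16 of the 20 cytosolic genes and 14 of the 16 mitochondrial genes. DARS, LARS, VARS, YARS, AARS2 and VARS2 had no entry. The letters were present in any window of 7 cytosolic genes and 1 mitochondrial gene. They were in 3.61% of all 35116 windows, and in any window of 4.45% of all 27305 genes. The stretches that hold them are shown because they are a sequence feature in which the cytosolic genes with a window differ among themselves. No unrelated motif was searched. Each is read 5′ to 3′ on the coding strand, with the matched bases in capitals.
AARS: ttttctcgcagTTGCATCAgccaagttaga
CARS: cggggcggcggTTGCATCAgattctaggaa
GARS: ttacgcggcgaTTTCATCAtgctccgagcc
IARS: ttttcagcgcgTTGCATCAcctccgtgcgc
MARS: gccggttccggTTGCATCAgcgagggattc
NARS: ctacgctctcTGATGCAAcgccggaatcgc
TARS: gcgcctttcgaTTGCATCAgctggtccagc
YARS2: tccacactgcTGATGGAAaaattaagttta

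These stretches lie at chr16:70289675-70289704 (AARS, minus strand), chr11:3057407-3057436 (CARS, minus), chr7:30594834-30594863 (GARS, plus) and chr9:92293692-92293721 (IARS, minus). The others lie at chr12:57488053-57488082 (MARS, plus), chr18:57621803-57621832 (NARS, minus), chr5:33440956-33440985 (TARS, plus) and chr12:32756075-32756104 (YARS2, minus). The narrower core TGATGCAA was in the windows of AARS, CARS, IARS, MARS, NARS and TARS. It was in 0 mitochondrial windows, in 0.866% of all windows and in any window of 1.08% of all genes. In 5 of those 6 genes, and in GARS, the capitals read the element on the strand opposite to the gene. Counted from the transcription start, the first matched base was at -187 in AARS and at -33 in GARS. In the other 5 cytosolic genes it lay within 15 bases of the start. A match of letters is a description of the window and does not show that a factor binds there.

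Library totals ran from 63541413 to 78917459 counts. The Pearson correlation of log2 values over tested genes was 0.9973 to 0.998 within groups and 0.9878 to 0.9894 between them. All 9 breast epithelial markers checked were present, among them KRT8 at 1557 and KRT19 at 1045 counts per 1000000 (CPM) in control. Of the markers of other cells, PTPRC, CD3E, PECAM1, PDGFRB and KRT14 had too few counts to be tested. COL1A2, VWF and KRT5 were at 0.19, 0.10 and 0.20 CPM in control. COL1A1, however, was at 32.2 CPM in control and 20.9 CPM in shtRF. CD68 was at 4.71 and 6.97 CPM, with 85.8% of its exonic bases in other genes. Control replicate 3 stood apart in genes of the amino acid response. ATF4 was at 407.7 and 385.8 CPM in control replicates 1 and 2 and at 259.5 CPM in control replicate 3, while the shtRF libraries had 255.8, 231.4 and 227.9 CPM. CHAC1, which encodes a glutathione-degrading enzyme induced by ATF4, was at 10.2, 9.57 and 1.17 CPM in the control libraries and at 1.71, 1.46 and 1.64 CPM in the shtRF libraries. Many of the counts, medians and ratios below are therefore also given without control replicate 3, though not every value that it moved. The part that this library's state plays in them was not tested otherwise.

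Many cytosolic synthetase mRNAs were lower in shtRF. Of the 20 genes, 10 were lower, 1 was higher and 9 did not pass an adjusted p of 0.05 in edgeR's quasi-likelihood test. Among all tested genes 18.9% were lower and 20.6% were higher by the same rule, and among the 8926 genes with a mean of at least 10 CPM the shares were 24.8% and 31.6%. The median log2 fold change was -0.17 over the cytosolic genes, against 0.03 over those 8926 genes. The fitted change was negative for 17 of the 20 genes. In 11 genes all 3 shtRF libraries lay below all 3 control libraries, and in 1 gene they lay above, where 23.8% and 24.9% of all tested genes did so. Without control replicate 3, 11 cytosolic genes were lower and 1 was higher, and the median was -0.24.

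YARS (tyrosine; chr1:32775237-32818153, minus strand, GRCh38, as are all gene positions below) had the largest fitted change of the cytosolic genes. It was at 150.2, 149.1 and 114.9 CPM in the control libraries and at 87.98, 95.57 and 90.98 CPM in the shtRF libraries. The groups did not overlap, and control replicate 3 was the lowest control. On average its level fell by 33.7%. In log2 fold change this was -0.59 ± 0.08 (adjusted p = 1.67e-06; errors of fold changes are SE), and -0.71 ± 0.06 without control replicate 3.

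LARS (chr5:146113038-146182660, minus strand), the leucine enzyme of the multisynthetase complex, was at 188.0, 190.4 and 179.8 CPM in control and at 133.6, 136.0 and 137.4 CPM in shtRF. Both groups were tight, and control replicate 3 was close to the other control libraries. Its log2 fold change was -0.46 ± 0.05 (SE; adjusted p = 2.81e-07).

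IARS (chr9:92210207-92293756, minus strand), the isoleucine enzyme of the same complex, was at 47.4, 51.7 and 45.2 CPM in control and at 38.2, 35.3 and 33.5 CPM in shtRF. All shtRF libraries were below all controls. The log2 fold change was -0.43 ± 0.06 (SE; adjusted p = 1.33e-05).

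GARS (chr7:30594681-30634033, plus strand) and AARS (chr16:70252295-70289543, minus strand), for glycine and alanine, showed a clear split within the control group. GARS was at 237.8, 223.6 and 164.3 CPM in control and at 161.1, 153.3 and 161.3 CPM in shtRF. AARS was at 298.2, 292.6 and 244.4 CPM in control and at 209.3, 218.1 and 212.5 CPM in shtRF. Control replicate 3 of GARS lay just above the highest shtRF library. The log2 fold changes were -0.40 ± 0.09 (adjusted p = 9.22e-04) for GARS and -0.38 ± 0.06 (adjusted p = 4.96e-05) for AARS. With that library left out they were -0.54 ± 0.06 and -0.47 ± 0.05.

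**Figure D1:**
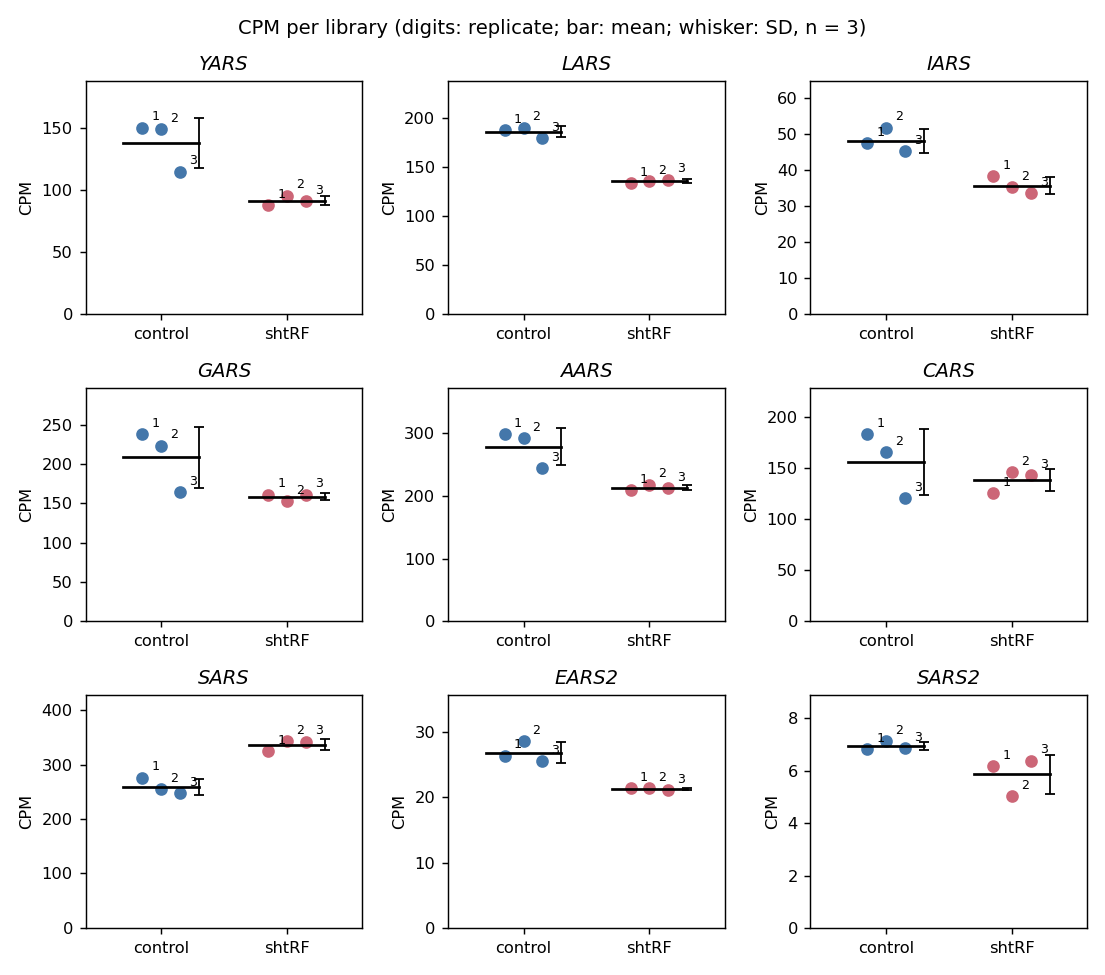
TMM-scaled CPM (vertical axes, each starting at 0) of 9 synthetase genes in the 3 control (blue) and 3 shtRF (red) libraries, where each point is a library, the digit is its replicate number, the horizontal bar is the group mean and the whisker is the SD. In the panels of YARS, GARS, AARS and CARS, control replicate 3 lies below the other control libraries, SARS is the panel in which shtRF is higher, and in LARS and EARS2 all 3 shtRF libraries lie well below all controls.

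Smaller falls were measured for 5 further cytosolic genes. For VARS (valine) the control mean was 59.6 ± 1.63 CPM and the shtRF mean 47.8 ± 1.63 CPM (SD, n = 3), which is -0.32 ± 0.06 in log2 fold change. The log2 fold changes were -0.27 ± 0.06 for TARS (threonine), -0.25 ± 0.06 for DARS (aspartate) and -0.20 ± 0.05 for EPRS, a single protein that charges both glutamate and proline tRNAs. Their adjusted p-values in edgeR were between 8.01e-05 (VARS) and 0.00418 (EPRS). KARS was nearest to the threshold. It was at 81.8, 80.7 and 84.0 CPM in control and at 71.1, 78.5 and 73.2 CPM in shtRF, so the groups were apart but by less than in the genes above. Its log2 fold change was -0.15 ± 0.05 (adjusted p = 0.0374), and the call was lost without control replicate 3 (adjusted p = 0.0866), without control replicate 1 (0.0586), without shtRF replicate 1 (0.125) or 3 (0.136) and with no filter beyond 1 count (0.0563).

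CARS (cysteine) and MARS (methionine) did not pass, and both calls turned on control replicate 3. They are named for this after their values were seen. CARS was at 182.9, 165.6 and 120.4 CPM in control and at 125.6, 145.6 and 143.4 CPM in shtRF. MARS was at 100.9, 89.0 and 68.3 CPM in control and at 75.5, 77.1 and 77.5 CPM in shtRF. For both genes control replicates 1 and 2 lay above every shtRF library and control replicate 3 lay below every one. The adjusted p was 0.16 for CARS (log2 fold change -0.18 ± 0.10, SE) and 0.147 for MARS (-0.17 ± 0.09). Without control replicate 3 the log2 fold changes were -0.33 (adjusted p = 2.43e-04) and -0.31 (adjusted p = 2.46e-04). Both genes also passed when no filter beyond 1 count was applied (adjusted p = 0.0088 and 0.0246). Of the exonic bases of MARS, 12.4% also belong to ARHGAP9 or to DDIT3, the latter a stress-response gene (log2 fold change -0.22, adjusted p = 0.349).

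FARSA and FARSB encode the alpha and beta subunits of the phenylalanine enzyme, which is made of both. FARSA was at 95.4, 94.8 and 102.8 CPM in control and at 94.5, 102.6 and 104.9 CPM in shtRF. FARSB was at 37.3, 39.8 and 39.3 CPM in control and at 37.4, 38.3 and 35.3 CPM in shtRF. In both genes the groups overlapped, and neither passed. The 95% confidence interval of the log2 fold change was -0.07 to 0.16 for FARSA and -0.19 to 0.05 for FARSB. The log2 ratio of FARSA to FARSB was 1.33 ± 0.07 in control and 1.44 ± 0.12 in shtRF (SD, n = 3), which overlapped.

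The other cytosolic genes without a call were RARS (arginine, -0.12), QARS (glutamine, -0.08), WARS (tryptophan, -0.07), HARS (histidine, -0.04) and NARS (asparagine, 0.08), in log2 fold change. QARS was the only member of this group whose libraries did not overlap, at 94.97 to 97.4 CPM in control and 86.6 to 93.7 CPM in shtRF (adjusted p = 0.244). HARS shares 18.3% of its exonic bases with WDR55, HARS2 or DND1 and WARS shares 10.6% with neighbouring genes, so part of their counts cannot be assigned with certainty.

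SARS (chr1:109213918-109238169, plus strand), the serine enzyme, was the single cytosolic synthetase that rose. Seryl-tRNA synthetase charges the tRNA family from whose precursors the targeted fragment is cut. It was at 276.0, 254.5 and 247.9 CPM in control and at 325.0, 342.6 and 342.2 CPM in shtRF, with no overlap. The log2 fold change was 0.38 ± 0.06 (SE; adjusted p = 1.02e-05), a rise of 29.7%, and it was 0.34 ± 0.06 without control replicate 3. The rise passed the threshold in all 13 alternative settings, where it ranged from 0.34 to 0.42. None of the exonic bases of SARS lie in exons of another gene in the count table.

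SARS2 (chr19:38915266-38930896, minus strand), the mitochondrial serine enzyme, was at 6.82, 7.12 and 6.88 CPM in control and at 6.16, 5.02 and 6.39 CPM in shtRF. Its groups did not overlap, but its change (-0.25 ± 0.11 on the log2 scale) did not pass (adjusted p = 0.0856). Of its exonic bases, 57.0% also belong to MRPS12, a mitochondrial ribosomal protein gene, or to CTC-360G5.8. MRPS12 had a log2 fold change of -0.16 (adjusted p = 0.21) and CTC-360G5.8 fell by 0.36 (adjusted p = 0.0273). How much of the SARS2 value belongs to its neighbours was not tested.

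**Figure D2:**
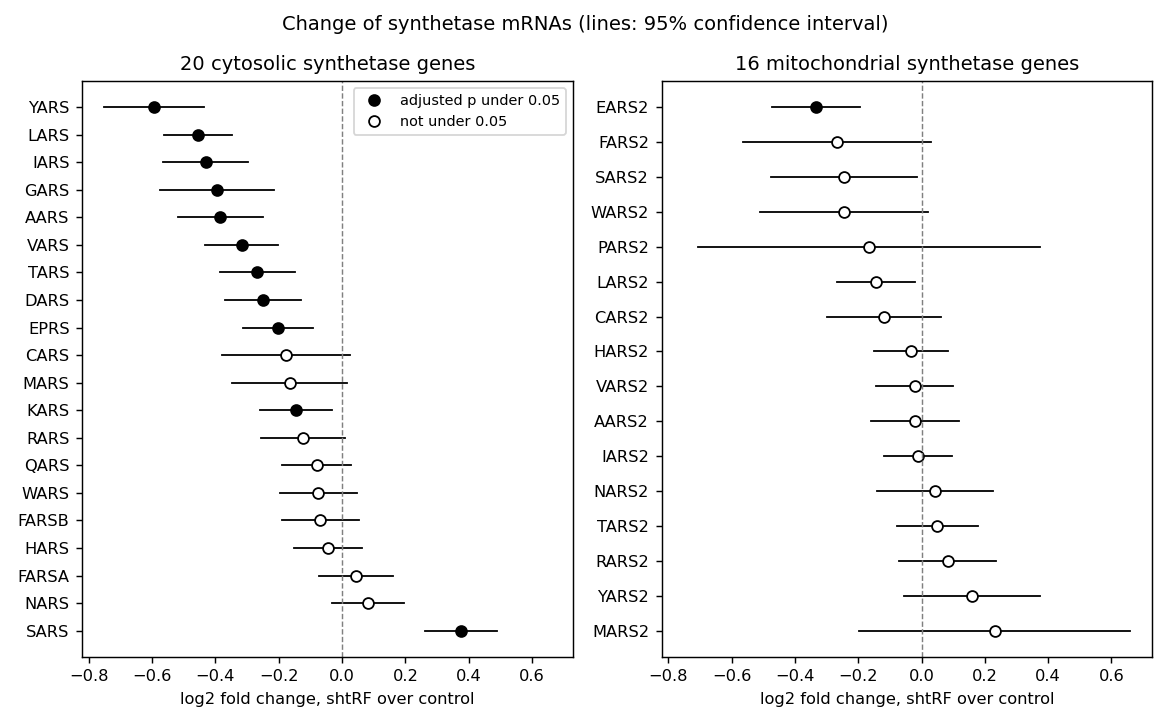
Log2 fold change, shtRF over control (horizontal axis), of the 20 cytosolic (left) and 16 mitochondrial (right) synthetase genes over 6 libraries, with lines for the 95% confidence interval and filled points for an adjusted p under 0.05 in edgeR. Most cytosolic points lie left of 0, with YARS at -0.59 and SARS alone filled on the right at 0.38, while EARS2 at -0.33 is the only filled mitochondrial point.

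Few mitochondrial synthetase mRNAs passed the test. Of the 16 genes, 1 was lower and 0 were higher at an adjusted p under 0.05 in edgeR, below the shares of all tested genes given above. At an unadjusted p under 0.05 in edgeR, 3 were lower and 0 were higher, where 4424 and 4707 of all 19628 tested genes were. DESeq2 also called 1 lower and 0 higher at an adjusted p under 0.05. The median log2 fold change was -0.03. Without control replicate 3, 1 gene was lower and 1 was higher, with a median of -0.04.

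EARS2 (glutamate; chr16:23522014-23557731, minus strand) was the mitochondrial gene that fell. It was at 26.4, 28.6 and 25.5 CPM in control and at 21.4, 21.4 and 21.1 CPM in shtRF, and the shtRF libraries were almost equal. The log2 fold change was -0.33 ± 0.07 (SE; adjusted p = 3.94e-04) and passed in all 13 alternative settings. EPRS, whose protein holds the cytosolic glutamate enzyme, fell less, by 0.20. LARS2 (leucine) was at 36.25, 36.02 and 36.53 CPM in control and at 31.2, 33.2 and 34.0 CPM in shtRF, without overlap, and just missed the threshold (log2 fold change -0.14, adjusted p = 0.0586). CARS2 (log2 fold change -0.12, adjusted p = 0.303) was the other mitochondrial gene, beside EARS2, LARS2 and SARS2, whose groups did not overlap, and none of the 16 had all shtRF libraries above all controls. These 4 of 16 are near the 23.8% of all tested genes whose shtRF libraries all lay below all controls. For 24.9% of all tested genes they all lay above.

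The remaining mitochondrial genes ranged in log2 fold change from -0.27 ± 0.14 for FARS2 to 0.23 ± 0.21 for MARS2. MARS2 had an adjusted p of 0.41 with all libraries and of 0.0457 without control replicate 3, where its log2 fold change was 0.53. It was a low gene, at 1.599, 2.118 and 3.107 CPM in control and at 2.11, 3.09 and 2.87 CPM in shtRF. IARS2 (isoleucine), the most abundant mitochondrial synthetase mRNA, was at 234.5, 234.2 and 244.7 CPM in control and at 228.8, 237.4 and 241.1 CPM in shtRF. Its 95% confidence interval was -0.12 to 0.09 in log2 fold change. HARS2 and VARS2 share 21.8% and 22.0% of their exonic bases with other genes. The overlapping neighbour ZMAT2 of HARS2 rose by 0.34 and GTF2H4, which overlaps VARS2, fell by 0.35.

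The cytosolic and mitochondrial genes were then set side by side within each library. The mean log2 CPM of the cytosolic genes, relative to its mean over the control libraries, was 0.05, 0.04 and -0.09 in control and -0.21, -0.15 and -0.18 in shtRF. For the mitochondrial genes it was -0.02, -0.01 and 0.03 in control and -0.11, -0.10 and 0.01 in shtRF. All shtRF libraries were below all controls for the cytosolic mean, with control replicate 3 closest to them, whereas shtRF replicate 3 lay among the controls for the mitochondrial mean.

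The difference between the cytosolic and the mitochondrial mean log2 CPM was 3.17, 3.15 and 2.98 in control and 2.99, 3.05 and 2.92 in shtRF. These values overlapped. The mean difference of -0.11 exceeded the pooled SD of 0.09 only slightly, and it was -0.17 without control replicate 3. A separate response of the cytosolic genes is thus not resolved by this measure, and no test was made on the means of chosen genes. On the scale of counts per kilobase of exon and per 1000000 counts (RPKM), summed over genes, the cytosolic total was 666 ± 40.1 in control and 597 ± 2.12 in shtRF, and the mitochondrial total was 125 ± 1.07 and 118 ± 2.32 (SD, n = 3). RPKM was scaled to the total count of each library without TMM factors, so its ratios differ from those in CPM. From control to shtRF, mean IARS2 went from 58.1 to 55.5 RPKM but from 237.8 to 235.8 CPM. Mean FARSA went from 40.8 to 40.6 RPKM but from 97.6 to 100.7 CPM. The falls of both totals thus include this difference of scale.

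A list of 12 cytosolic genes that are widely reported as ATF4 targets was compared with the other 8. It was drawn up from general knowledge and holds AARS, CARS, EPRS, GARS, IARS, LARS, MARS, NARS, SARS, TARS, WARS and YARS. Of the 12, 7 were lower and 1 (SARS) was higher, with a median log2 fold change of -0.24. Of the 8 others, 3 were lower and 0 were higher, with a median of -0.10. Those 3 were VARS, DARS and KARS. Among all tested genes 18.9% were lower and 20.6% were higher, and among those with a mean of at least 10 CPM 24.8% and 31.6%. Without control replicate 3, 9 of the 12 and 2 of the 8 were lower, and the medians were -0.33 and -0.09.

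The lists differed in how control replicate 3 stood to its own group. The mean log2 CPM of the 12 genes relative to the control mean was 0.10, 0.06 and -0.17 in control and -0.25, -0.20 and -0.21 in shtRF. For the 8 others it was -0.02, -0.004 and 0.03 in control and -0.16, -0.07 and -0.14 in shtRF. Over 32 tested genes of the amino acid response other than synthetases, it was 0.28, 0.22 and -0.49 in control and -0.62, -0.64 and -0.65 in shtRF. Control replicate 3 was thus nearest to the shtRF libraries where the response genes and the 12 reported targets were concerned, and it was the highest control for the 8 others. What set this library apart was not tested.

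**Figure D3:**
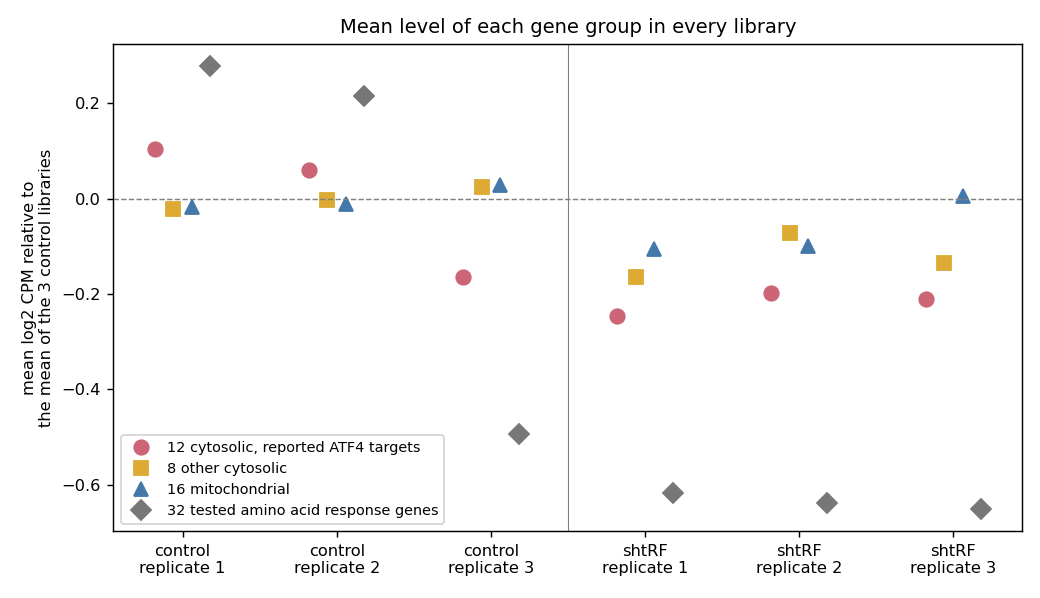
Mean log2 CPM of 4 gene groups relative to their mean over the 3 control libraries (vertical axis) in each of the 6 libraries (horizontal axis), with a symbol per gene group. Control replicate 3 lies at -0.49 for the amino acid response genes and at -0.17 for the 12 reported ATF4 targets, close to the shtRF libraries, but at 0.03 for the 8 other cytosolic and the 16 mitochondrial genes.

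The response genes themselves were examined next. Of the 32 tested, 23 were lower and 1, ATF5, was higher, against 18.9% and 20.6% of all tested genes. The median log2 fold change was -0.49. PSAT1 had too few counts to be tested. The largest changes were those of DDIT4, an inhibitor of mTORC1 signalling (-2.81), STC2, which encodes a secreted glycoprotein (-2.42), CHAC1 (-2.11) and SLC7A5, the large neutral amino acid transporter (-1.69). Without control replicate 3, 28 were lower and 1 was higher, with a median of -0.69. DDIT4 was at 502.9, 428.5 and 253.8 CPM in control and at 56.8, 53.6 and 58.2 CPM in shtRF. Of its exonic bases, 41.2% also belong to RP11-442H21.2, which fell by 2.79. Control replicate 3 was between the groups for DDIT4, unlike for CHAC1 and ATF4, where it lay near the shtRF libraries.

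The promoter windows shown above were set beside these changes. The 6 cytosolic genes with the core TGATGCAA had a median log2 fold change of -0.22, and 3 of them (AARS, IARS and TARS) were lower. The 10 cytosolic genes with a window but without the core had a median of -0.08, with 3 lower (EPRS, GARS and KARS) and 1 higher. The 4 cytosolic genes with no window entry (YARS, LARS, VARS and DARS) were all lower, with a median of -0.39. Counted with the 10, they give 7 lower and 1 higher of 14 and a median of -0.13. Whether those 4 hold the core was not examined. By the same threshold 18.9% of all tested genes were lower and 20.6% were higher. In genes with a mean of at least 10 CPM the shares were 24.8% and 31.6%. NARS holds the core and had a log2 fold change of 0.08 ± 0.06 (SE), with a 95% confidence interval of -0.03 to 0.20, and it was at 465.0, 454.9 and 430.7 CPM in control and at 452.5, 496.8 and 480.9 CPM in shtRF. SARS, the gene that rose, holds neither form in its window. The core was present in 6 of the 10 reported ATF4 targets with a window and in 0 of the 6 others with one, as a description of the lists.

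By place in the cell, the 8 enzymes of the multisynthetase complex (DARS, EPRS, IARS, KARS, LARS, MARS, QARS and RARS) all had a negative log2 fold change, with a median of -0.18. Of them, 5 were lower and 0 were higher, against 18.9% and 20.6% of all tested genes. For genes with a mean of at least 10 CPM the shares were 24.8% and 31.6%. Among the 12 cytosolic genes outside the complex, 5 were lower and 1 was higher, with a median of -0.13. With control replicate 3 left out, 5 genes of the complex were lower (median -0.24), and outside it 6 were lower and 1 was higher (median -0.21). The scaffold genes gave no call. AIMP1 (0.09), AIMP2 (-0.15) and EEF1E1 (0.04), in log2 fold change, did not pass (adjusted p = 0.211 to 0.792), and they share 11.6%, 28.9% and 18.7% of their exonic bases with other genes. By fold of the catalytic domain, 4 of the 9 class I genes were lower and 0 were higher (median -0.18), and 5 of the 10 class II genes were lower and 1 was higher (median -0.11). These became 6 of 9 (median -0.31) and 4 of 10 with 1 higher (median -0.09) without control replicate 3, so no order of the classes can be read from the counts. EPRS, which holds a domain of each class, was counted in neither.

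The levels of the 36 mRNAs spanned a wide range when set per exonic length. In control the cytosolic genes ran from 6.62 RPKM (IARS) to 112 RPKM (NARS), with a median of 20.7, and the mitochondrial genes from 0.522 (PARS2) to 58.1 (IARS2), with a median of 4.12. NARS (112 ± 4.88 RPKM) and EPRS (98.1 ± 4.95) led the order in control, followed by SARS (68.9 ± 3.99), AARS (63.04 ± 6.99), IARS2 (58.1 ± 1.15) and GARS (51.2 ± 9.76; SD, n = 3). Among the last 4, the ranges of mean and SD overlapped between adjacent genes, but SARS lay apart from IARS2 and GARS. In shtRF, SARS stood at 86.1 ± 0.864 RPKM, above EPRS at 82.2 ± 1.29, and AARS at 46.5 ± 0.402 lay below IARS2 at 55.5 ± 0.88. The lowest member count was 48 for the mitochondrial genes and 2014 for the cytosolic genes, and the SE of the log2 fold change ran up to 0.26 for the mitochondrial gene PARS2, while it was 0.05 for IARS2.

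**Figure D4:**
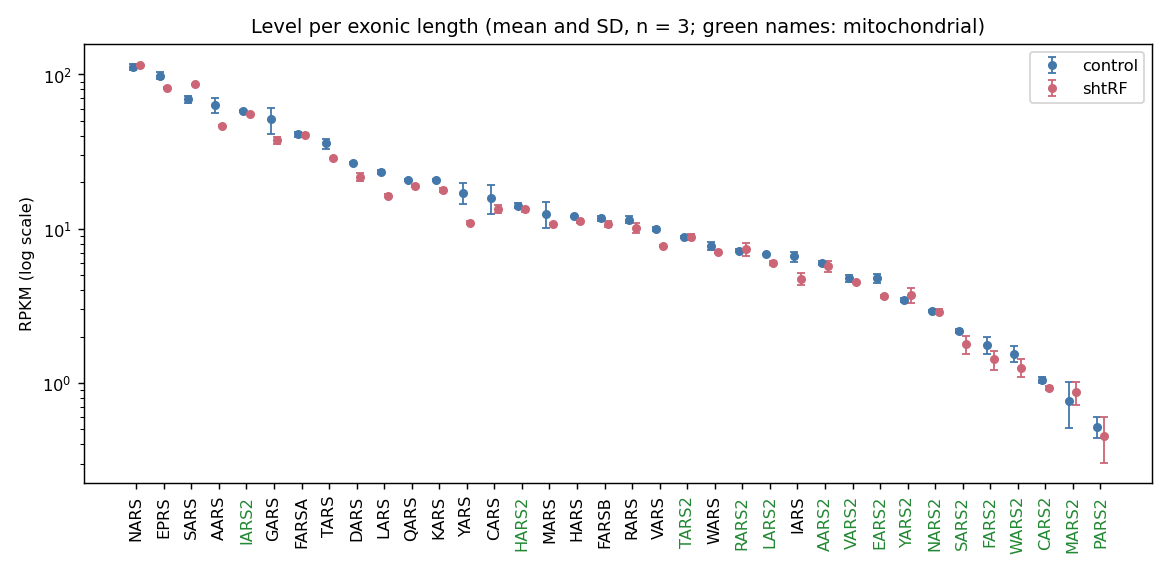
RPKM on a log axis (vertical) of the 36 synthetase genes in order of their control mean (horizontal), with points for the mean and whiskers for the SD over 3 libraries in control (blue) and shtRF (red), and mitochondrial names in green. The order runs from NARS at 112 RPKM to PARS2 at 0.522 RPKM, with IARS2 the only mitochondrial gene among the highest 6 and SARS the gene among them whose red point lies well above the blue one.

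For amino acids with a separate gene for each compartment, the log2 ratio of cytosolic to mitochondrial CPM was taken enzyme by enzyme. It moved most for YARS over YARS2, from 4.32, 4.34 and 4.02 in control to 3.58, 3.59 and 3.29 in shtRF. It moved up for SARS over SARS2, from 5.34, 5.16 and 5.17 to 5.72, 6.09 and 5.74, with the overlap of SARS2 named above. The libraries also lay apart upward for FARSA over FARS2 (mean shift 0.31) and for EPRS over EARS2 (0.13). They overlapped for FARSB over FARS2 (0.19) and for EPRS over PARS2 (0.004). The shift of the mean was -0.42 for IARS over IARS2, -0.36 for AARS over AARS2, -0.31 for LARS over LARS2, -0.31 for TARS over TARS2 and -0.30 for VARS over VARS2, each without overlap of the libraries. For cysteine, histidine, methionine, asparagine, arginine and tryptophan the groups overlapped. The shift went from -0.42 to -0.83 for MARS over MARS2 and from -0.04 to -0.20 for CARS over CARS2 without control replicate 3. Without that library it was -0.84 for YARS over YARS2 and 0.60 for SARS over SARS2. It was then -0.48 for IARS over IARS2, -0.44 for AARS over AARS2 and -0.38 for TARS over TARS2. For LARS over LARS2, VARS over VARS2 and FARSA over FARS2 it was -0.34, -0.24 and 0.25. With 3 against 3 libraries an exact permutation test of a ratio cannot go below p = 0.1, and none was run.

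Genes that act before and after charging were described in the same way. Of 14 genes for other charging and editing steps, 5 were lower and 1 was higher, against 18.9% and 20.6% of all tested genes. The median log2 fold change of the 14 was -0.08, and -0.01 without control replicate 3. DTD1, which encodes a deacylase that removes D-amino acids from tRNA, went from 10.5 ± 0.596 to 5.83 ± 0.5 CPM (log2 fold change -0.84 ± 0.10, SE; adjusted p = 4.99e-07). XPOT, the exporter of tRNA from the nucleus, fell by 0.37, and so did SEPSECS, which completes selenocysteine on its tRNA. PSTK, the kinase of the step before SEPSECS, which acts on a tRNA first charged with serine by SARS, rose by 0.40 (adjusted p = 0.00525). It was at 6.12, 6.75 and 6.99 CPM in control and at 7.49, 9.25 and 9.45 CPM in shtRF.

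All 6 cytosolic elongation factor genes were lower, against 18.9% of all tested genes and 24.8% of those with a mean of at least 10 CPM. The median log2 fold change of the 6 was -0.46. EEF1A1, the carrier of charged tRNA, had a control mean of 1636 ± 39.6 CPM and an shtRF mean of 920 ± 24.5 CPM (SD, n = 3; log2 fold change -0.83 ± 0.05, adjusted p = 4.88e-11). EEF1A1 has many processed pseudogene copies, and how reads shared with them were counted is not known here. EEF1G, EEF1B2 and EEF1A2 fell by 0.80, 0.51 and 0.42. Almost all exonic bases of EEF1G (99.9%) also belong to RP11-864I4.1, which fell by 0.79, so their counts cannot be told apart, and EEF1B2 shares 17.4% with other genes. Control replicate 3 did not stand apart in this group, whose mean log2 CPM relative to the control mean was -0.01, 0.03 and -0.02 in control and -0.56, -0.48 and -0.49 in shtRF. Without that library 5 of the 6 were lower. Of 4 mitochondrial elongation factor genes, GFM2 (18.8% of exonic bases in other genes) fell by 0.31, TUFM, the mitochondrial counterpart of eEF1A, rose by 0.24, and the other 2 did not pass.

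WARS is also an interferon-inducible gene. It was at 49.8, 50.2 and 45.2 CPM in control and at 45.4, 45.7 and 46.8 CPM in shtRF, and the groups overlapped (log2 fold change -0.07 ± 0.06, SE; adjusted p = 0.337). Among 9 tested genes of the interferon gamma response, 5 were lower and 1, GBP2, was higher, against 18.9% and 20.6% of all tested genes. Their median log2 fold change was -0.40, and -0.29 without control replicate 3. PSMB8 and PSMB9, which encode immunoproteasome subunits, fell by 0.80 and 0.54, whereas GBP2, which encodes a guanylate-binding protein, rose by 0.64. PSMB8 shares 21.2% of its exonic bases with PSMB8-AS1.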

How the data were processed

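The deposited table held raw read counts per gene for 6 libraries, with exon coordinates, made by the authors from stranded mRNA read pairs. The submitters' processing notes name Trimmomatic 0.36, featureCounts, Subread 1.5.1, edgeR 3.12.1 and GRCh38. The aligner, and whether counting used strand, are not given in the sources used here. Of counts from 1 to 4, 74.2% to 77.1% were even, and of counts of 1000 or more 49.7% to 50.8%. Both mates of a pair may therefore have been counted. The share of even counts at high genes cannot tell whether this held there too. A deposited RPKM table was not used, and RPKM was computed from the counts and the exonic length.

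Counts were tested with edgeR 4.0.16 (R 4.3.3) by the quasi-likelihood functions (glmQLFit, glmQLFTest) on a model of the group alone, after filterByExpr at its minimum count of 10, with TMM factors (0.961 to 1.03) and Benjamini-Hochberg adjustment over 19628 genes. The SE was derived from the F statistic. CPM carries the TMM factors, and the coefficient of variation between replicates was 7.56%. The fit was tested on simulated data. Groups came from the sample titles. The study's methods call the replicates biological, but separate transductions are not stated, so p-values measure the spread between these libraries. The chi-square per degree of freedom within groups was 5.93 to 17.2, so no library looked deposited more than once.

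The members and gene lists were chosen with earlier results of these data known. Genes given in full were, by a written rule, up to 6 members per compartment with an adjusted p under 0.05 and the largest change, then SARS, SARS2, GARS, KARS, FARSA and FARSB, and up to 4 genes of each other list. Some genes of those other lists are counted but not reported here by name. CARS, MARS, LARS2, MARS2, IARS2, NARS and others were added after their values were seen, as was the core TGATGCAA. Motifs were counted in RefSeq promoter windows. Alternatives were scaling by upper quartile or RLE, a filter of at least 1 CPM in 3 libraries or only 1 count in any, DESeq2 1.42.0, counts divided by 2, a replicate block, and each library left out. The pair ratios without control replicate 3 were added after seeing the data. Deviations of same-numbered libraries correlated at 0.06, 0.02 and 0.02, so the numbers were not taken as pairs.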

Additional observations from a re-analysis of the deposited data

How the results depend on the processing

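Over 13 alternatives, 9 to 11 cytosolic genes were lower and 1 was higher. The cytosolic median log2 fold change was -0.24 to -0.16 when a library was left out, with -0.24 without control replicate 3. The mitochondrial count of lower genes was 1 to 2 with a library left out, 3 under upper quartile scaling, 2 with at least 1 CPM in 3 libraries and 2 with counts divided by 2, and that of higher genes was 0 to 1 with a library left out. The mitochondrial median was -0.064 under upper quartile scaling, -0.047 with the 1 CPM filter, and -0.060 to -0.020 with a library left out. Upper quartile scaling moved the median of all genes to -0.04, and the causes of these moves were not tested. Of 468 fitted values of the 36 genes, 448 kept direction and side of the threshold, 5 lost the threshold (all KARS), 10 passed it and 5 changed sign without a call, each with a library left out. These were AARS2 (-0.072 to 0.019), IARS2 (-0.032 to 0.0096), PARS2 (-0.38 to 0.071) and VARS2 (-0.055 to 0.0073). The cytosolic minus mitochondrial difference ranged from -0.17 to -0.08. With the replicate number as a block, 10 cytosolic genes were lower and 1 higher (median -0.15) and 1 mitochondrial gene was lower, so the pairing changed no member's call. Depth limits the lowest genes, such as PARS2 with an SE of 0.26.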
